A study of Homo sapiens with 2 samples.

Results

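Genes for cytosolic and mitochondrial chaperones and their co-chaperones were described in EOL-1, an established line from a human eosinophilic leukaemia with the FIP1L1-PDGFRA fusion kinase. A gene was included by its symbol: the HSPA, HSPB, HSPD, HSPE, HSPH, HSP90A and DNAJ series, numbered CCT and BAG genes, TCP1, HSF1 and HSF2, without HSPA5, DNAJB9, DNAJC3, pseudogenes and antisense or other noncoding transcripts. This gave 81 of the 19775 genes that the platform's annotation names from probe sets with 1 symbol, covered by 189 probe sets. The rule itself used symbols and no measured value, but it was chosen with earlier results of these data known. Some included genes act elsewhere than in the cytosol or mitochondria: DNAJB11, DNAJC10, DNAJC1 and HSPA13 encode proteins of the endoplasmic reticulum. HSPA1A, HSPA1B, HSPA8 and TCP1 were listed only on probe sets shared with other symbols, and these genes and HSF2 are not analysed here.

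Chaperones bind unfolded stretches of other proteins and release them in cycles of ATP binding and hydrolysis. HSP70 proteins are loaded with substrate by J-domain proteins (the DNAJ genes), which stimulate ATP hydrolysis, and are unloaded by nucleotide exchange factors such as the HSP110 and BAG proteins. HSP90 acts later on kinases and receptors, the ring-shaped chaperonins (CCT in the cytosol, HSP60 with HSP10 in mitochondria) enclose their substrates, and HSF1 is the transcription factor of the heat shock response. Mutant and fusion kinases are common HSP90 clients.

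Total RNA of EOL-1 cells kept with 100 nM Glivec (imatinib, which blocks the kinases ABL and KIT and those of the PDGF receptors) for 4 h was compared with RNA of EOL-1 cells left without it. Both groups are the same line in RPMI medium with serum, so both carry the fusion, and each is 1 Affymetrix array. With 1 array per group there is no replicate check of any difference, no test between the groups was possible and no p-value is given. The values are MAS5 signals, an intensity per probe set. A signal at or under 13.7, the median of all signals, was set to that floor, and a gene was measured when at least 1 array lay above it. Ratios are Glivec over untreated, on the log2 scale unless a fold is named. A gene is represented by its brightest probe set, and probe sets of the same gene differed with a pooled SD of 0.33 (log2) over 5603 genes and 0.25 over 44 chaperone genes. That SD leaves out all variation between cultures.

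The arrays differed in ways that touch every ratio here. The median ratio of all 12705 measured genes was 0.10, and the 18 hybridisation spike-in probe sets had a median of 0.74. Scaling to the spike-ins moved the median of all genes to -0.59. There 64 of 68 measured chaperone genes were negative (90.0% of all genes were). These 68 included DNAJB8 (-0.16) and HSPB7 (-0.17), which lay under the floor on both arrays before that scaling. DNAJB4, DNAJB13, DNAJC5B and DNAJC18 stayed positive, while the other chaperone genes with a positive ratio on their brightest probe set turned negative or, for HSPA2 and DNAJC28, fell under the floor on both arrays. All differences are therefore relative to the bulk of genes. The 3' over 5' signal ratio of GAPDH was 1.04 with Glivec and 0.925 without. Of 10 eosinophil marker genes with a probe set, 6 were measured. With Glivec and without, PRG2 (granule major basic protein) had signals of 6302 and 4744, RNASE2 2872 and 2146, and CEBPE 126.1 and 103.3. GATA2 was lower with Glivec, at 94.4 and 208.2, with other probe sets up to 0.20. EPX (27.2 and 12.6) and CLC (13.2 and 19.4) each had 1 array under the floor. IL5RA, SIGLEC8, PRG3 and GATA1 lay under the floor on both arrays. All 4 myeloid markers with a probe set were measured, with MPO at 694 and 550 and ANPEP barely above the floor with Glivec (13.8). Of the markers of other cells, 1 of 4 was measured for T cells, 1 of 3 for B cells, 1 of 2 for erythroid cells and 1 of 4 for epithelial cells and fibroblasts. Their part in the results was not tested. The summed marker signal, with Glivec and without, was 30.8 and 32.8 for T cells, 101.3 and 76.3 for B cells, 40.1 and 8.15 for erythroid cells, and 31.4 and 28.5 for epithelial cells and fibroblasts. These sums include values under the floor. The erythroid difference rests mostly on 1 HBB probe set (30.5 with Glivec, 6.93 and so under the floor without), and another HBB probe set was at -0.06.

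As a group the chaperone genes differed little between the arrays. Of the 81 genes, 68 were measured and 13 lay at or under the floor on both arrays. Their ratios ranged from -0.98 (HSPA4L) to 1.16 (DNAJC18), and 0 of 68 were at least 2-fold lower (2.63% of all measured genes were) and 2 of 68 at least 2-fold higher (3.13% of all). At 1.5-fold, 7 of 68 were lower (10.3%, against 8.33% of all genes) and 6 of 68 were higher (8.82%, against 13.5% of all). Both shares lie near the background. The median ratio was -0.08, against 0.10 over all genes, and 38 of 68 ratios were negative (55.9%, against 41.0% of all). Among the 3176 brightest measured genes, 24 of 35 chaperone genes were negative with a median of -0.19, where 46.6% of all genes were negative and the median was 0.03. This did not hold at all signals. At mean signals of 31.4 to 129.5, 5 of 14 were negative with a median of 0.45 (36.9% and 0.17 for all genes). At 129.5 to 377.5, 7 of 13 were negative with a median of -0.09 (46.1% and 0.05 for all). Among the dimmest genes, 2 of 6 were negative with a median of 0.08 (34.3% and 0.17 for all).

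The 7 lower genes were HSPA4L, BAG5, BAG2, DNAJA4, DNAJA3, HSPA14 and DNAJB11. The 6 higher genes were DNAJC18, DNAJB4, DNAJB13, DNAJC5B, BAG3 and DNAJC22, all of them dim: their untreated signals were between 7.24 and 76.0. Several probe sets were above the floor for 47 chaperone genes. All were lower for 22 of these, all higher for 9, and of both signs for 16. The same count was not made over all genes, so these numbers have no background to compare with. Probe sets of the same gene were read on the same arrays, so their agreement is no replicate check.

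**Figure D1:**
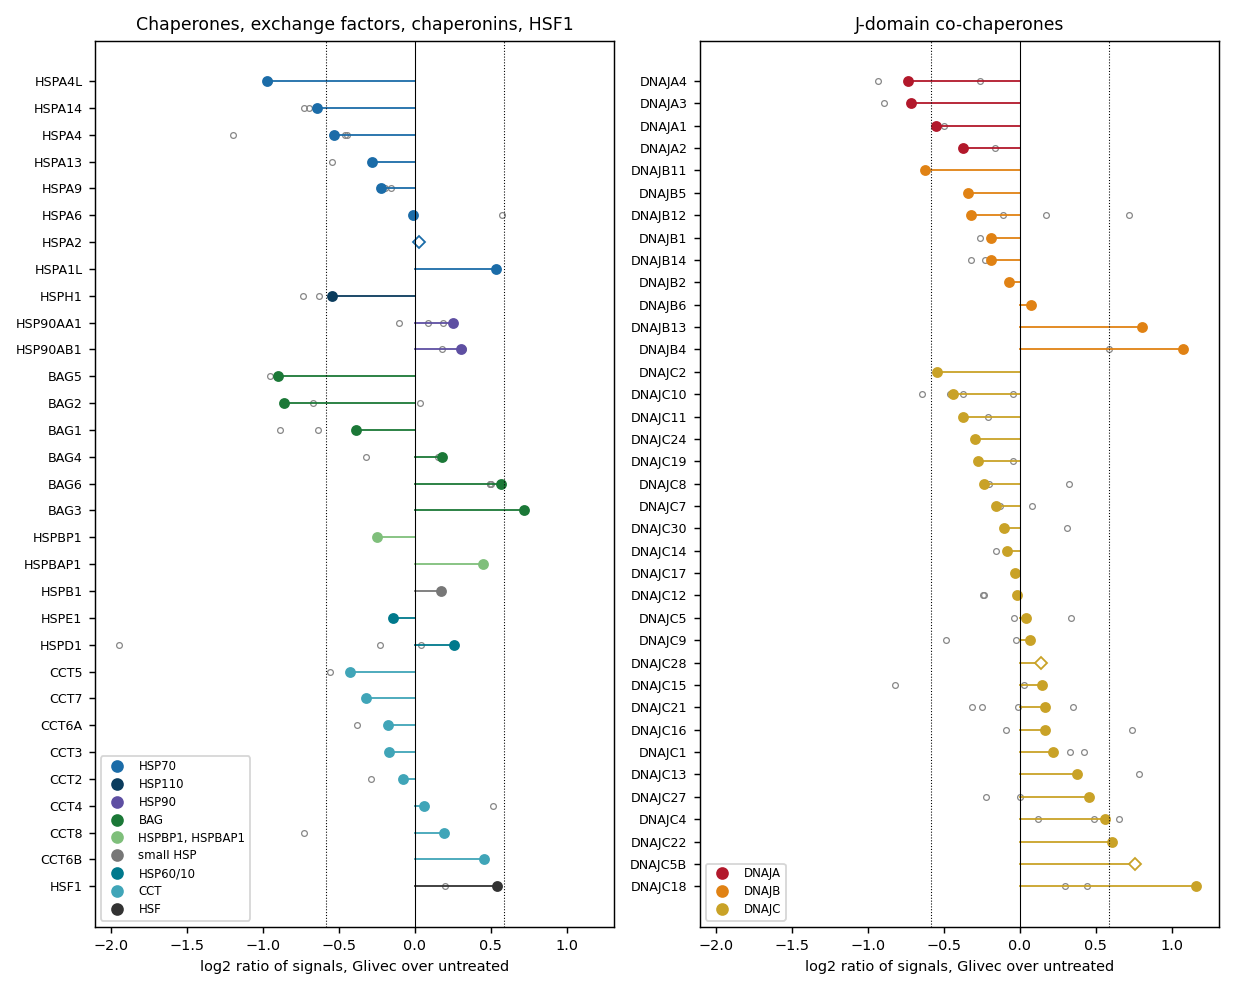
Log2 ratio of signals (Glivec over untreated) for the 68 measured chaperone genes. Filled circles are the brightest probe set of each gene, coloured by class, open diamonds are bounds with 1 array at the floor, small open circles are the gene's other probe sets above the floor, and dotted lines mark 1.5-fold. HSPA4L is lowest at -0.98 and DNAJC18 highest at 1.16, and all 4 DNAJA genes lie left of 0.

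The DNAJA genes encode type I J-domain proteins, the class that resembles bacterial DnaJ most closely. All 4 of them were lower, with a median of -0.64 (41.0% of all genes were lower, with a median of 0.10). Their promoters are shown because these 4 genes went the same way. The sequences are from RefSeq (GRCh38.p14), the 250 bases before the annotated start, 5′ to 3′ on the gene's strand. Capitals mark a match to GAANNTTC or TTCNNGAA, the paired units of a heat shock element, or to CACGTG, an E-box. Each of these motifs is its own reverse complement, so 1 search covers both strands.
DNAJA1 (chr9:33025023-33025272, plus strand): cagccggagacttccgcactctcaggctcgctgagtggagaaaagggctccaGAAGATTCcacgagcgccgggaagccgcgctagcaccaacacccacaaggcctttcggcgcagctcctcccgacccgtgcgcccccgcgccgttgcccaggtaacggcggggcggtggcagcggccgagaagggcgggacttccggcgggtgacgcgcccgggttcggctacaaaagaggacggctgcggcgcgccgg
DNAJA2 (chr16:46973675-46973924, minus strand): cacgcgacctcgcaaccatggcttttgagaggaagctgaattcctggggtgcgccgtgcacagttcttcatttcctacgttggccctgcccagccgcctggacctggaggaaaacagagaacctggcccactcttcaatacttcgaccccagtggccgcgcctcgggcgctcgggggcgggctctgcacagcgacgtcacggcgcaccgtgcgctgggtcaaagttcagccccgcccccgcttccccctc
DNAJA3 (chr16:4425618-4425867, plus strand): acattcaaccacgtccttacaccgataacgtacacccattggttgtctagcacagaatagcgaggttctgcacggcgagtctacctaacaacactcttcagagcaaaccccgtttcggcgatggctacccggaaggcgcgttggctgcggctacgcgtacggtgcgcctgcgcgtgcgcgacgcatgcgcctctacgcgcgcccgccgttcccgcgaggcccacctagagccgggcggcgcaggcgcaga
DNAJA4 (chr15:78263895-78264144, plus strand): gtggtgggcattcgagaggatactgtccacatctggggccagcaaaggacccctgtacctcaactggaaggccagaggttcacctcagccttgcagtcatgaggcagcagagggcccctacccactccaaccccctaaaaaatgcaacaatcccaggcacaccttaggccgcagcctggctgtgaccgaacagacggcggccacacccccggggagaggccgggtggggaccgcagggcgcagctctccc

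The single match among the 4 was GAANNTTC upstream of DNAJA1. Of the 81 chaperone genes, 71 had a promoter in the table. A match to either heat shock motif was present in 12 of 71 (16.9%), against 9.90% of 15843 protein-coding genes in windows of the same length. CACGTG was present in 7 of 71 (9.86%), against 7.84%. Among measured genes, the 8 with a heat shock motif had a median ratio of 0.11 (-0.86 to 0.53, 3 negative) and the 52 without one a median of -0.12 (32 negative). The 7 with CACGTG had a median of -0.02, against -0.09 for the other 53. The genes with CACGTG were HSPD1, HSPE1, HSPA9, HSPBAP1, DNAJC8, DNAJC12 and DNAJC16. A match describes the letters in the window and is no evidence of binding.

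DNAJA3, the mitochondrial J-domain partner of HSPA9, had a signal of 350.3 with Glivec and 576 without, 1.64-fold lower, and its other probe set was at -0.89. DNAJA4 had signals of 43.5 and 72.5 and was 1.67-fold lower. Its other probe sets above the floor were at -0.26 and, as a bound, -0.93. DNAJA1, an abundant cytosolic partner of HSP70, had signals of 1839 and 2697, a ratio of -0.55, with the other probe set at -0.50. DNAJA2, which acts with HSP70 in refolding, had 513 and 663, a ratio of -0.37, with the other probe set at -0.17. DNAJA1 and DNAJA2 are thus within 1.5-fold with the deposited scaling. DNAJA1 was past 1.5-fold with quantile normalization (-0.60), median centring (-0.65) and loess (-0.66). With spike-in scaling both were, at -1.29 for DNAJA1 and -1.11 for DNAJA2. With the deposited scaling, every probe set of the 4 genes with an array above the floor was lower with Glivec.

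The HSP110 proteins are distant HSP70 relatives that act mainly as nucleotide exchange factors. All 3 of their genes were lower (41.0% of all genes were): HSPA4L, HSPH1 and HSPA4. This grouping follows textbook usage and was made with the values known. HSPA4L had a signal of 33.3 with Glivec and 65.5 without, 1.97-fold lower, and its other probe set was under the floor with Glivec and at 26.7 without. HSPH1 had signals of 634 and 925, a ratio of -0.55, with the others at -0.63 and -0.74. HSPA4 had signals of 628 and 909, a ratio of -0.53, with 2 cross-hybridising probe sets at -0.46 and -0.45 and a dim one at -1.20 (42.5 against 97.5). All 9 probe sets of these 3 genes were lower, from -1.20 to -0.45.

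HSPA14 and DNAJC2 form the ribosome-associated complex, which meets new chains as they leave the ribosome. HSPA14 had a signal of 367 with Glivec and 573 without, 1.56-fold lower, and its other probe sets were at -0.69 and -0.73. DNAJC2 had 490.4 and 715, a ratio of -0.54, from the 1 probe set above the floor. The other HSP70 genes were closer to 0. HSPA9, the mitochondrial HSP70 that drives protein import, had signals of 1681 and 1965 and a ratio of -0.23, with others at -0.20 and -0.16. HSPA13, of the endoplasmic reticulum, had 526 and 638 and a ratio of -0.28, with the other probe set at -0.55.

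Among HSP70 genes named for inducible or germ-cell expression, values were low. HSPA6, which is strictly stress-induced, had signals of 34.9 and 35.3, a ratio of -0.01, and 35.0 against 23.6 by a second probe set. HSPA1L had 68.8 and 47.5, a ratio of 0.53. HSPA2 was barely above the floor with Glivec (13.9) and under it without. HSPA12A and HSPA12B were under the floor on both arrays. The HSP70 class had a median of -0.25 over 8 genes, 6 of them negative (0.10 and 41.0% negative for all genes). The 8 include HSPA4 and HSPA4L, and without that pair the median was -0.12 over 6 genes, 4 of them negative.

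The BAG proteins bind the HSP70 ATPase domain, and they did not go one way. BAG5, an exchange factor, had a signal of 271.5 with Glivec and 508 without, 1.87-fold lower, and its other 2 probe sets were at -0.95 and -0.89. BAG2, which inhibits the chaperone-linked ubiquitin ligase CHIP, had 349.1 and 634, 1.82-fold lower, with dim probe sets at -0.67 and 0.03. BAG1, an exchange factor that links HSP70 to the proteasome, had 491 and 643, a ratio of -0.39, with others at -0.64 and -0.88. All probe sets of BAG1 and BAG5 were lower.

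The other BAG genes were higher on the Glivec array, except with spike-in scaling, where BAG3, BAG4 and BAG6 turned to -0.022, -0.56 and -0.17. BAG3, a stress-inducible factor in chaperone-assisted autophagy, had signals of 76.7 and 46.7 by its single probe set, 1.64-fold higher. BAG6, which handles tail-anchored and mislocalised proteins, had 1549.9 and 1045, a ratio of 0.57, and its other 3 probe sets, 1 of them a bound, were all at 0.49 to 0.50. BAG4 had 709.8 and 628, a ratio of 0.18, with others at 0.15 and -0.32. HSPBP1, an exchange factor, had 219.75 and 261.7, a ratio of -0.25. HSPBAP1, named for binding the small heat shock protein HSPB1, was at 0.45.

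**Figure D2:**
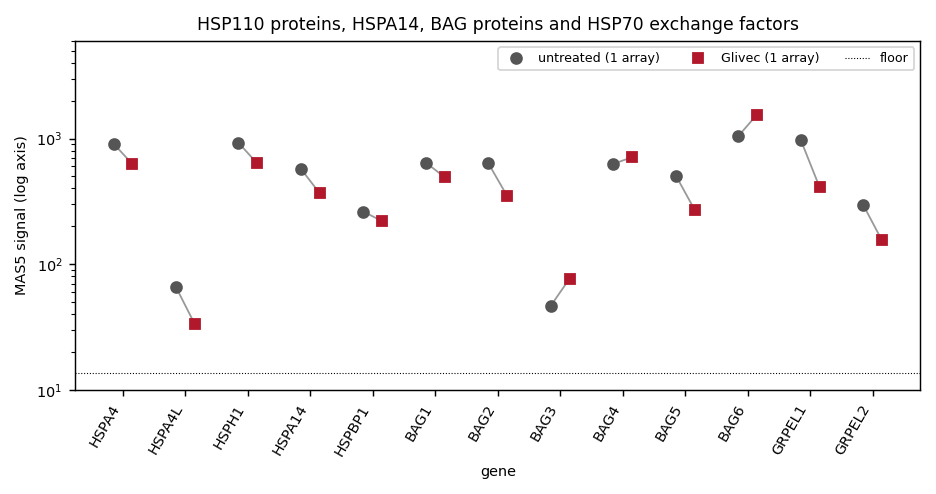
MAS5 signals on a log axis for HSP110, HSPA14, HSPBP1 and BAG genes and for GRPEL1 and GRPEL2, on the untreated array (circles) and the Glivec array (squares), 1 array each. HSPA4, HSPA4L, HSPH1, HSPA14, BAG1, BAG2 and BAG5 slope down, as do GRPEL1 (974 to 411) and GRPEL2 (295.8 to 154.4), while BAG3, BAG4 and BAG6 slope up.

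The type II J-domain genes (DNAJB) had a median of -0.19 over 9 measured genes, 6 of them negative. Over all measured genes the median was 0.10 and 41.0% were negative. DNAJB4 had a signal of 159.7 with Glivec and 76.0 without, 2.10-fold higher, with the second probe set at 0.59. DNAJB13, a component of sperm flagella, was 1.75-fold higher from low signals (42.8 and 24.5). DNAJB11, the partner of HSPA5 in the endoplasmic reticulum, had 555 and 857 and was 1.54-fold lower by its single probe set. DNAJB1, the J-domain protein most closely tied to heat shock, had 612 and 697, a ratio of -0.19, with the other probe set at -0.27. DNAJB12 had 4 probe sets from -0.32 to 0.72, with the brightest lowest. DNAJB14, its relative in the endoplasmic reticulum membrane, was at -0.19 with others at -0.23 and -0.32. DNAJB5, DNAJB2 and DNAJB6, the last a suppressor of protein aggregation, were at -0.34, -0.07 and 0.07. DNAJB7 and DNAJB8 were under the floor.

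The DNAJC genes share a J-domain and little else. Their 24 measured members centred on 0 with a median of 0.05, 11 negative and 13 positive. Of all measured genes 41.0% were negative, with a median of 0.10. The DNAJC median was -0.05 with median centring and -0.70 with spike-in scaling. DNAJC18 had signals of 63.3 with Glivec and 28.4 without, 2.23-fold higher, but its other probe sets were at 0.44 and 0.30. DNAJC22 was 1.52-fold higher from signals of 21.1 and 13.9. DNAJC5B was at least 1.69-fold higher, with 23.1 against a value under the floor. The lowest was DNAJC2. DNAJC10, a disulfide reductase of the endoplasmic reticulum, had 323 and 439.7, a ratio of -0.44, and all 5 of its probe sets were negative. DNAJC1, in the membrane of that organelle, had 294.3 and 252.6, with all 3 probe sets between 0.22 and 0.42.

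Between these, 11 DNAJC genes had ratios within 0.17 of 0, namely DNAJC5, DNAJC7, DNAJC9, DNAJC12, DNAJC14, DNAJC15, DNAJC16, DNAJC17, DNAJC21, DNAJC28 and DNAJC30. DNAJC9, a histone chaperone, was at 0.06 (1501 and 1437), with a cross-hybridising probe set at -0.49. DNAJC21, which takes part in ribosome assembly, was at 0.16 with 4 more probe sets between -0.31 and 0.35. DNAJC5, the cysteine string protein of secretory vesicles, was at 0.04. DNAJC4 had a ratio of 0.56 (205.4 and 139.4) with all 4 probe sets above the floor positive, and DNAJC13, an endosomal protein, was at 0.37 and 0.78. DNAJC27 had a ratio of 0.45 on its brightest probe set, with others at 0.00085 and -0.23. DNAJC8, a factor of messenger RNA splicing, was at -0.24, -0.20 and 0.32. DNAJC24, of diphthamide synthesis, was at -0.29. DNAJC28 was barely above the floor with Glivec (15.1) and under it without, and DNAJC5G and DNAJC6 were under it on both arrays.

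Genes of mitochondrial chaperones ranged from -0.72 (DNAJA3) to 0.56 (DNAJC4). HSPD1 (HSP60) had a signal of 7537 with Glivec and 6305 without, a ratio of 0.26, and the next brightest probe set was at 0.04. A dim one was under the floor with Glivec and at 52.9 without, a bound of -1.95, and another was at -0.23. HSPE1 (HSP10) had 2909 and 3209, a ratio of -0.14. DNAJC19, of the import motor, was at -0.28 and -0.04, DNAJC15 at 0.15, 0.02 and, as a bound, -0.82, DNAJC11 at -0.37 and -0.21, and DNAJC30 at -0.10 and, as a bound, 0.31. With HSPA9, DNAJA3, DNAJC4 and DNAJC28, 6 of 10 mitochondrial genes were negative and the median was -0.12 (41.0% and 0.10 for all genes).

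The CCT ring folds actin and tubulin and is built of related subunits, of which TCP1 is not analysed here. No CCT gene reached 1.5-fold, where 8.33% of all genes were lower and 13.5% higher. The 8 measured CCT genes had a median of -0.13 (0.10 over all genes). CCT5 was lowest, with signals of 1934 and 2600.5 and a ratio of -0.43, and its dim probe set was at -0.56. CCT7 had 1553 and 1946, a ratio of -0.33. CCT6A had 1853 and 2094, a ratio of -0.18, with another at -0.38. These are the lower end of a narrow range. CCT3 had 1858 and 2095, a ratio of -0.17. CCT2 had 3852 and 4077, a ratio of -0.08, with another at -0.29. CCT4 had 3073 and 2944, a ratio of 0.06, and CCT8 had 4139.6 and 3621, a ratio of 0.19. The bright subunits thus lay between -0.43 and 0.19. Other probe sets of CCT4 and CCT8, both dim, were at 0.51 and, as a bound, -0.73. CCT6B, a testis form, had 84.3 and 61.5, a ratio of 0.46, and CCT8L2 was under the floor. With loess CCT4 and CCT8 turned to -0.10 and -0.02, and with quantile normalization to -0.09 and -0.0062.

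The cytosolic HSP90 genes were bright on both arrays. HSP90AA1, the inducible form, had a signal of 7288 with Glivec and 6125 without, a ratio of 0.25, with others from -0.10 to 0.18. HSP90AB1, the constitutive form, had 7369.98 and 5969, a ratio of 0.30, with others at 0.32 and 0.18. These signs depended on the scaling, as did that of HSPD1. With quantile normalization HSP90AA1 was at -0.21, HSP90AB1 at -0.14 and HSPD1 at -0.22. With a loess trend on mean signal removed, the same genes were at -0.07, -0.02 and -0.07. No direction is therefore given for them.

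Of the small heat shock proteins, which hold unfolded proteins without ATP, only HSPB1 was measured, with signals of 357 and 317 and a ratio of 0.17 by 1 probe set. HSPB2, HSPB3, HSPB6, HSPB7, HSPB8 and HSPB9 were under the floor on both arrays. HSF1 had signals of 193.1 and 132.8, a ratio of 0.54, and 82.8 against 72.3 by its second probe set. With spike-in scaling HSF1 turned to -0.20 and HSPB1 to -0.57.

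**Figure D3:**
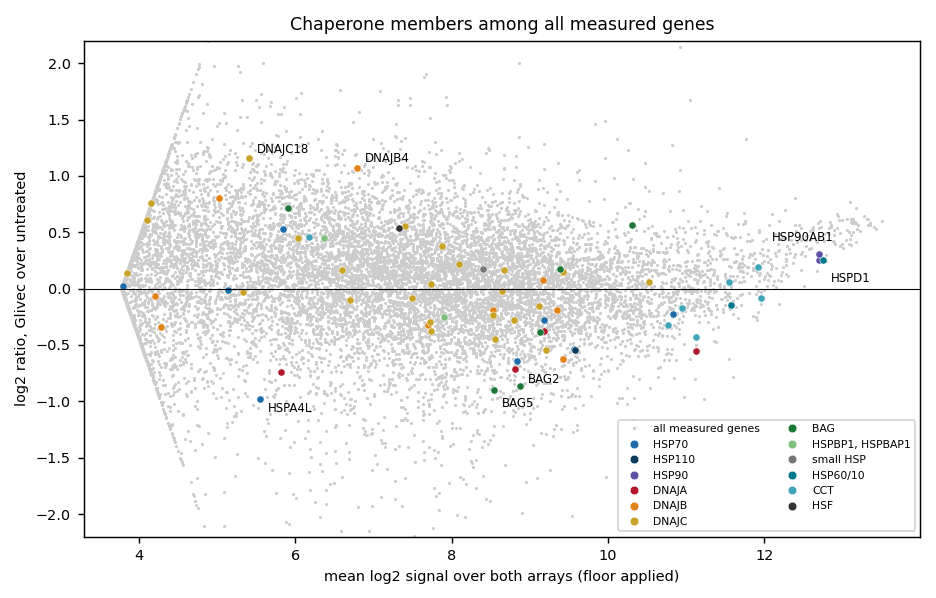
Log2 ratio of Glivec over untreated against mean log2 signal over both arrays, with all 12705 measured genes in grey (31 lie beyond the vertical axis) and the chaperone genes coloured by class. HSP90AB1 and HSPD1 lie at the bright end, where the grey cloud bends upward, BAG2 and BAG5 lie below 0 at middle signal, and DNAJB4 and DNAJC18 above 0 at low signal.

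Genes of the same folding pathways that are not in the series above were taken from a list of 49 entries. That list was also chosen with earlier results of these data known. Of these 42 were measured, with a median of -0.11, 9 at least 1.5-fold lower (21.4%, against 8.33% of all genes) and 3 at least 1.5-fold higher (7.14%, against 13.5% of all). The list includes both exchange factors of the mitochondrial HSP70. GRPEL1 had a signal of 411 with Glivec and 974 without, 2.37-fold lower, with the other probe set at -1.07. GRPEL2 had 154.4 and 295.8, 1.92-fold lower, with the other at -1.56. HSCB, the mitochondrial J-domain protein of iron-sulfur cluster assembly, was at 0.39.

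The HSP90 co-chaperones were split, with a median of -0.08 over 19 measured genes. FKBP4, an immunophilin of steroid receptor complexes, had signals of 355 and 711, a ratio of -1.003 that is just past 2-fold, with 3 other probe sets up to -0.32. CHORDC1 was 1.80-fold lower (357 and 645), and STIP1, which hands clients from HSP70 to HSP90, was 1.56-fold lower (539 and 840.04) with its other probe set at -0.83. FKBP8 was 2.22-fold higher (242.4 and 109.1) with both probe sets at 0.95 or more. FNIP1, a partner of folliculin, was at 0.81 with others down to -0.16. CDC37, the kinase co-chaperone, was at 0.22 and PTGES3 at 0.12.

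A list of 30 heat shock factor targets shares members with the sets above and was also chosen with earlier results known. HSPA1A, HSPA1B, HSPA8 and AHSA1 had no probe set with 1 symbol, so these targets are not covered. CRYAB and HSPB8 lay under the floor on both arrays. The measured part of the list was evenly divided around 0. Of its 24 measured genes 12 were negative (50%, against 41.0% of all genes) and 12 positive, with a median of -0.03 (0.10 over all). At 1.5-fold, 16.7% were lower (8.33% of all) and 12.5% higher (13.5% of all). The 4 at least 1.5-fold lower were HSPA4L, FKBP4, CHORDC1 and STIP1. The 3 at least 1.5-fold higher were DNAJB4, BAG3 and SERPINH1, a collagen chaperone that was 3.53-fold higher from signals of 52.5 and 14.9 by 1 probe set.

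The order of the classes was compared under other scalings of the arrays. Median centring shifts all ratios by 1 constant, so it cannot change the order or the position against all genes. Spike-in scaling does the same for all but genes near the floor, so neither is a check of the order. DNAJA had the lowest class median with the deposited scaling (-0.64), and also with quantile normalization (-0.64), median centring (-0.73), loess (-0.68) and spike-in scaling (-1.37). The HSP110 genes came next in each, at -0.55, -0.51, -0.64, -0.52 and -1.28. The order of these 2 classes turned when other probe sets were used: DNAJA was at -0.58 and HSP110 at -0.66 with the mean over probe sets, and at -0.50 and -0.98 with only _at probe sets. Both lay below the median of all genes under each of the 5 scalings, and so did HSP70 (also without HSPA4 and HSPA4L), DNAJB, BAG and CCT. DNAJA holds 4 genes and HSP110 holds 3, and the HSP110 grouping was made with the values known.

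**Figure D4:**
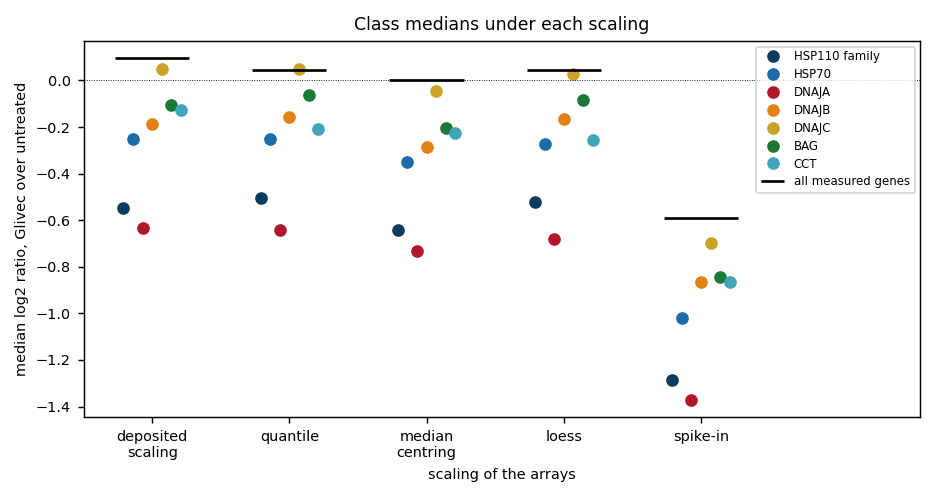
Median log2 ratio of Glivec over untreated for each class with at least 3 measured genes (points) and for all measured genes (black lines), under the deposited scaling and 4 alternatives. DNAJA and the HSP110 family lie lowest under these 5 scalings, and spike-in scaling moves all medians down, from 0.10 to -0.59 for all genes. Median centring cannot change the order.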

How the data were processed

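Expression was measured in 2 RNA samples of EOL-1 cells, 1 per group, on 1 Affymetrix array each. The deposited file gives a linear signal intensity per probe set, made by the authors with MAS5, per the submitters' processing notes, with the version not given in the sources used here. Their equal trimmed means show a common scaling before deposit.

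Each array holds 54675 probe sets, 62 of them controls. The platform's annotation, which can be old, gave 1 symbol to 41097, several to 1801 and none to the other 11777. Genes were named only from the first. All 81 chaperone genes matched the NCBI gene table of GRCh38.p14 by identifier, which supplied gene types.

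Signals under the floor of 13.7 were raised to it before log2. The probe set of highest mean signal stood for a gene, _x_at only where no other was present. Ratios with 1 array at the floor are bounds. Counts used 1.5-fold and 2-fold. Named were all measured genes of the smaller classes, all past 1.5-fold, and others by range. The number of arrays limits the precision, and no depth applies. Calculations used Python 3.11.15, numpy 2.4.6, pandas 2.3.3, statsmodels 0.14.6 and matplotlib 3.10.9, and were tested on simulated signals. Promoter orientation was checked by the position of TATAAA on both strands.

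The chaperone genes, lists and alternatives were chosen with earlier results of these data known.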

Additional observations from a re-analysis of the deposited data

How the results depend on the processing

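No paired analysis was possible because there is a single array in each group, and no replicate could be left out. The median over chaperone genes stayed negative under all 10 alternatives and moved by more than 0.1 only with spike-in scaling, to -0.81. That scaling gave 43 genes at least 1.5-fold lower (50.5% of all genes were) and 0 higher (1.22% of all). At 2-fold it gave 22 lower (19.3% of all) and 0 higher (0.33% of all). There 64 of the 68 genes measured under that scaling were negative (90.0% of all genes were). The 64 include BAG3 at -0.022 and DNAJC22 at -0.13, which had been 1.5-fold higher. Median centring gave 11 genes 1.5-fold lower (11.0% of all genes, up from 8.33%). At 2-fold it gave 1 lower and 1 higher (3.53% and 2.14% of all). Loess gave 1 lower and 1 higher at 2-fold (3.22% and 2.17% of all). Quantile normalization gave 1 lower (3.14% of all) and only _at probe sets 1 lower (2.65% of all). The 2 genes 2-fold higher became 0 with the mean over probe sets (2.39% of all genes were). They also became 0 with a pseudocount of 10 in place of the floor (2.25% of all) and with the floor at the 75th percentile (1.17% of all). With that 75th percentile floor 1 chaperone gene was 1.5-fold higher (7.74% of all). All 7 lower genes were 1.5-fold lower again with quantile normalization, centring, loess, spike-in scaling, the pseudocount and floors at the 40th and 60th percentile. With the mean over probe sets 6 of 7 were, and of the 5 with a value under the 75th percentile floor or with only _at probe sets, all 5 were. Centring and spike-in scaling moved these 7 genes further down, so they are no check here. Of the 6 higher genes, 5 were 1.5-fold higher again with quantile normalization, centring, loess and the pseudocount, and 0 with spike-in scaling. All 6 were with the 40th percentile floor and the mean over probe sets. With the 60th percentile floor or only _at probe sets 4 had a value and all 4 were, and with the 75th percentile floor 1 had a value and was. Centring shifts all ratios alike, and spike-in scaling does so except for genes near the floor, which was set again after it. Ratios of dim genes rest on signals near the floor. The cause was not tested for any other shift.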

Other observations

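Prefoldin delivers unfolded actin and tubulin to the CCT ring, and its subunit genes did not move together. PFDN2 had a signal of 423 with Glivec and 977 without, 2.31-fold lower, from 1 probe set. PFDN1, PFDN4 and PFDN5 were at 0.07, 0.08 and 0.14 and VBP1 at -0.11, with other PFDN4 probe sets down to -0.69. URI1, of the related URI complex, was 1.65-fold lower (349.7 and 579), with other probe sets up to -0.16, and PDRG1 was at -0.23. No test of these differences was possible with 1 array per group.

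Mitochondrial protein quality control genes other than the chaperones above had negative ratios in 6 cases out of 7 (median -0.36). Of all measured genes 41.0% were negative, with a median of 0.10. These 7 genes are a part of the list of 49 entries, which was chosen with earlier results known. BCS1L, an assembly factor of respiratory complex III, was 1.68-fold lower (187.2 and 314.9), and CLPB, a disaggregase, 1.70-fold lower from low signals (24.2 and 41.3). The protease subunits CLPP and AFG3L2 were both at -0.36, with another AFG3L2 probe set at 0.22, and LONP1 and CLPX were at -0.13 and -0.12. TRAP1, the mitochondrial HSP90, was at 0.05.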
